A study of Mus musculus with 9 samples.

Results

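Cytokines, chemokines, their receptors and the NF-kB pathway are the genes through which immune cells and glia signal to one another. A ligand such as an interleukin, a chemokine or a member of the tumour necrosis factor (TNF) superfamily binds its receptor, adaptors such as MyD88 and the TRAF proteins carry the signal to the IkB kinases, and NF-kB dimers then enter the nucleus and bind their target genes. In the hypothalamus these signals are known for fever, sickness behaviour and appetite, and microglia, astrocytes and vessels are among the cells that make or sense them. The genes were taken by symbol from the autosomal protein-coding genes of GENCODE vM21: Il, Tlr, Ccl, Ccr, Cxcl, Cxcr or Traf followed by a number, symbols beginning with Tnfsf, Tnfrsf, Nfkb or Ikbk, and Rel, Rela, Relb, Tnf, Lbp and Myd88. This gave 195 of 20807 genes, with 10 further genes on chromosome X left out. A gene was said to have a differentially methylated region (DMR) where one of the regions in the authors' table overlapped its body or the 1000 bp upstream.

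Methylated DNA immunoprecipitation (meDIP), in which an antibody against methylated cytosine enriches DNA fragments before sequencing, was carried out on the hypothalamus of male C57/Bl6 pups on postnatal day 6. Pups exposed to modified maternal separation (MMS) were taken from the dam for 1.5 h a day from postnatal day 4 to 6 and turned onto their backs while apart, and control pups were littermates that were not. DNA of 10 pups per group was combined into 3 control and 3 MMS pools, so that each library holds several animals, and 2 inputs and 1 IgG library entered the authors' processing only. The tissue is a mixture of cells, in which a different share of a cell type and a different methylation level within it cannot be told apart, and the table holds no markers by which the dissection could be checked. The authors' table lists 12949 DMRs, 12845 of them on autosomes, each with the log2 mean of normalised reads in control and in MMS. The table gives neither values nor depths per pool, so the means below carry no SD and could not be tested between groups. Every listed DMR had passed the authors' own test at a false discovery rate of 0.05. The lowest group mean in the table was -0.17 in control and -0.24 in MMS, which is 0.889 and 0.847 normalised reads, and a difference against a group at this value depends on where the value was set.

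A DMR was found in 22 of the 195 genes (11.3%), where 20.1% of all autosomal protein-coding genes had one. They held 27 DMRs, 13 with more reads in MMS and 14 with more in control. A DMR higher in MMS was present in 11 of the genes (5.64%, against 14.2% of all genes) and a DMR higher in control in 13 (6.67%, against 9.60%). Both directions were found in Ccl1 and Tnfrsf1b, and the other 173 genes had no DMR. Many of these genes are short, with a median of 10.9 kb against 17.6 kb over all genes, and a short gene has less room for a DMR. Under 10 kb, 4 of 92 genes (4.35%) had a DMR, where 3.76% of all genes of that length did. From 10 to 30 kb the count was 8 of 58 (13.8%, against 13.7%). At 30 to 100 kb it was 8 of 38 (21.1%, against 30.7%), and at 100 kb or more it was 2 of 7 (28.6%, against 64.9%). With the rate of all genes of the same length class, the 195 genes would have held 27.6 genes with a DMR, 18.8 with one higher in MMS and 12.3 with one higher in control. Per Mb of gene body and upstream sequence there were 6.11 DMRs, against 6.4 over all autosomal protein-coding genes, and 5.6 without Ccl1, whose gene model is taken up below.

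**Figure D1:**
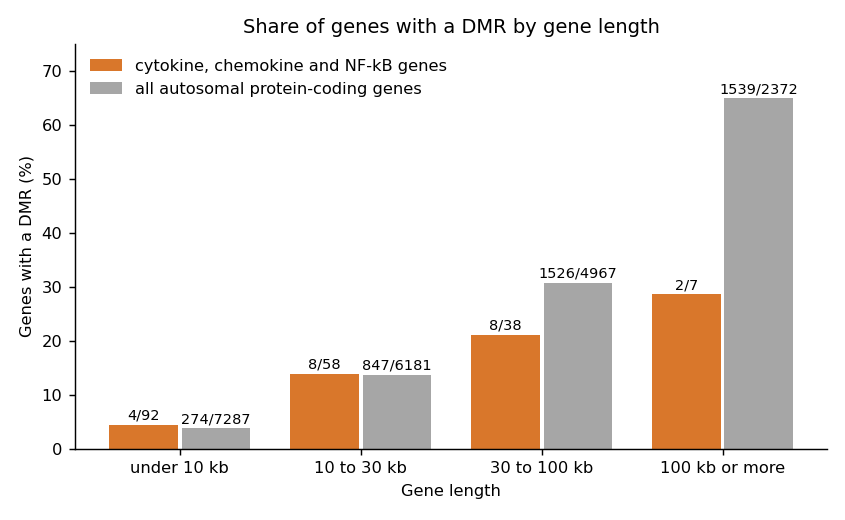
Share of genes with a DMR (y axis, %) in each class of gene length (x axis), for the cytokine, chemokine and NF-kB genes (orange) and all autosomal protein-coding genes (grey), with the counts above the bars. The shares of both sets are 4.35% and 3.76% under 10 kb, 13.8% and 13.7% from 10 to 30 kb, 21.1% and 30.7% from 30 to 100 kb, and 28.6% and 64.9% at 100 kb or more.

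Of the 27 DMRs, 48.1% were higher in MMS, where 62.4% of all autosomal DMRs and 62.0% of those in or upstream of protein-coding genes were. The control means ran from -0.17 to 6.16 with a median of 4.78 (2.02 over all autosomal DMRs), and the MMS means from -0.24 to 5.84 with a median of 4.16 (3.91). Control was at its lowest value in 4 of the 13 DMRs higher in MMS (30.8%, against 52.6% of all autosomal DMRs higher in MMS), those of Lbp and Tnfsf9 and one each of Ccl1 and Tnfrsf1b. Over all 27 these were 14.8%, against 32.8% of all autosomal DMRs. The MMS mean was at its lowest value in 1 of 27 (3.7%, against 1.74%), in Tnfrsf1b. Direction went with level much as it did over the whole table. Of 10 DMRs with a lower group mean of 3 or more on the log2 scale, 2 were higher in MMS (20%, against 19.7% of all autosomal DMRs at that level). Of the other 17, 11 were higher in MMS (64.7%, against 79.3%). Regions with a lower group mean of 3 or more made up 37.0% of the 27 and 28.4% of all autosomal DMRs. The median difference, MMS minus control, was 3.28 in the 13 (3.43 in all autosomal DMRs higher in MMS) and -1.89 in the 14 (-1.73).

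**Figure D2:**
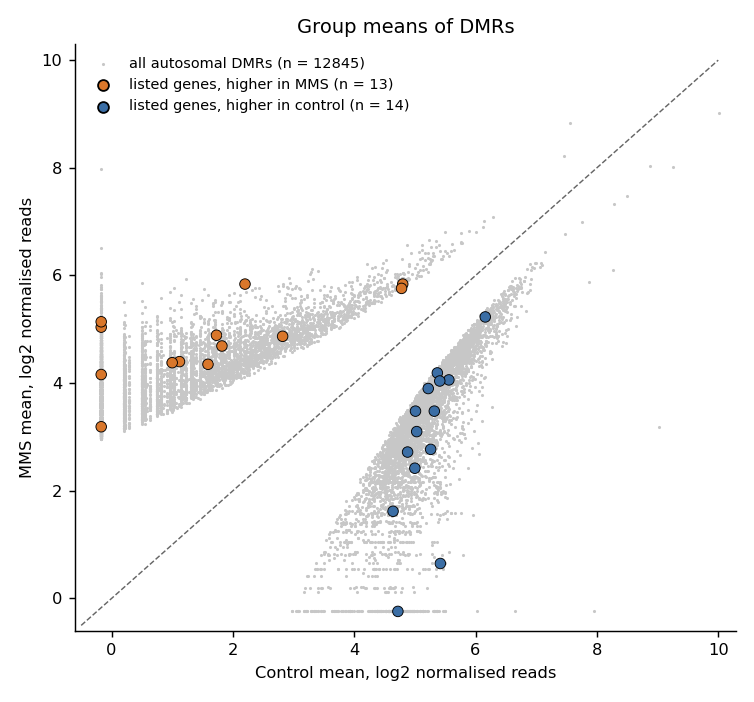
Group means of DMRs in log2 normalised reads, control on the x axis and MMS on the y axis. Grey points are the 12845 autosomal DMRs and the dashed line marks equal means. The 13 DMRs of the listed genes that are higher in MMS (orange) spread from a control mean of -0.17 to 4.80, and the 14 higher in control (blue) lie at control means of 4.64 to 6.16.

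By the rule every DMR lay in a gene or just upstream. Of 27, 16 were wholly intronic (59.3%, against 75.3% of the 6661 pairs of a gene and a DMR over all autosomal protein-coding genes), 9 touched an exon of the gene (33.3%, against 23.0%) and 3 reached the 1000 bp upstream (11.1%, against 2.22%), 1 of them doing both. The centre was over 5 kb downstream of the start in 22 (81.5%, against 89.0%) and within 1 kb of it in 3 (11.1%, against 2.58%). The genes of these 27 DMRs are shorter than those of all the pairs, with a median of 30.6 kb against 106 kb. A DMR that reaches the upstream 1000 bp is uncommon, found at 0.711% of all autosomal protein-coding genes, and here it was found at Ccl24, Il25 and Tnfsf9.

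**Figure D3:**
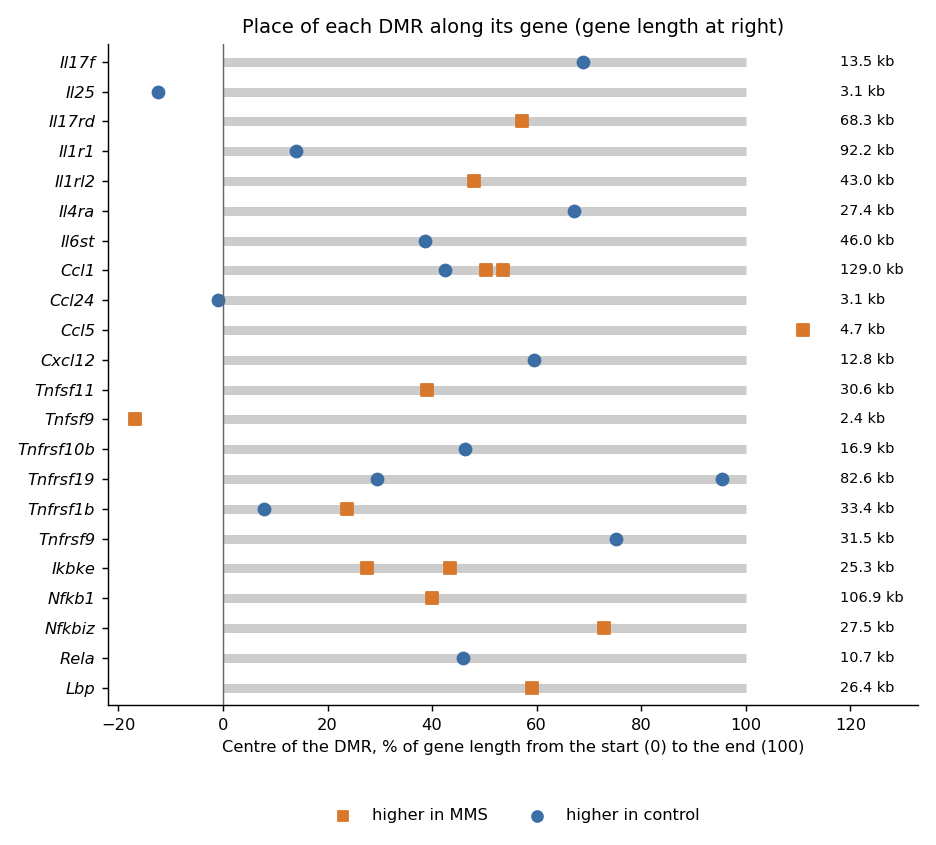
Place of each DMR along its gene, as the distance of its centre from the start in percent of the gene's length (x axis), for the 22 genes with a DMR (y axis). Orange squares are DMRs higher in MMS, blue circles those higher in control, grey bars the gene bodies, and the length of each gene is at the right. The points of Il25, Ccl24 and Tnfsf9 lie at -12.4%, -1.03% and -16.8%, before the start, and that of Ccl5 at 111%, past the end.

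**Figure D4:**
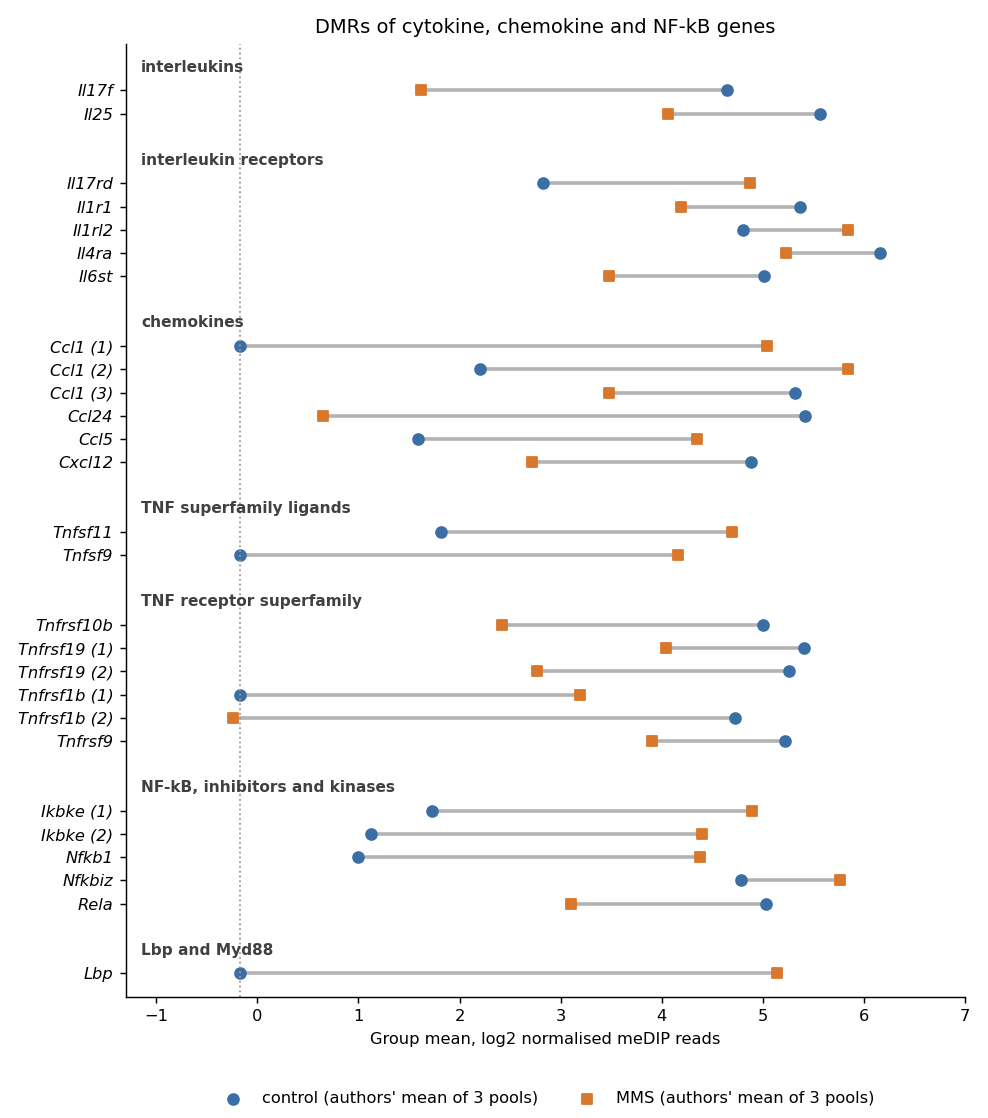
Authors' group means in log2 normalised meDIP reads (x axis) for the 27 DMRs (y axis), by the role of the gene. Blue circles are control, orange squares MMS, grey lines join the means of one DMR, the dotted line is the lowest control value of -0.17, and DMRs of one gene are numbered by position. All DMRs of interleukins are higher in control and all of TNF superfamily ligands higher in MMS, with only 2 in each group. Of all autosomal DMRs, 37.6% are higher in control and 62.4% higher in MMS.

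Roles are described below with their share of genes with a DMR, to be read against 20.1% of all genes, and the count that the rate of all genes of the same length classes gives. Among 38 interleukins, the secreted ligands, 2 had a DMR (Il17f and Il25, 5.26%, against a count of 3.91 by length). Both were higher in control, as were 37.6% of all autosomal DMRs. Both genes are of the IL-17 family, in which Il17a, Il17b, Il17c and Il17d had none. With 2 DMRs no direction is read for the family. Interleukin 25, also called IL-17E, is a type 2 cytokine of epithelium. Its DMR is a stretch of 153 bp upstream of the gene, with its centre at -0.39 kb from the start (negative values lie upstream) and a mean of 5.56 in control and 4.06 in MMS, or 47.2 and 16.7 normalised reads. It is shown whole because it lies before a gene start and holds the letters of an NF-kB site. The capitals mark its single CpG and a run of 10 bases that matches the NF-kB motif searched, on the minus strand, and ends 320 bp before the gene's start.

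Il25 upstream DMR, chr14:54932228-54932380, plus strand: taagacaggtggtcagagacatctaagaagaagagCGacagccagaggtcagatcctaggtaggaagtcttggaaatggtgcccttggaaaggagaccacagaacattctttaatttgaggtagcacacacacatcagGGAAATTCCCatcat

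The letters of the motif were found on either strand in 75 of 12845 autosomal DMRs (0.584%), and this was the one match among the 27. Interleukin 17F acts with IL-17A on epithelium and fibroblasts. Its DMR of 228 bp, in an intron on chromosome 1 from 20781241 to 20781468, had means of 4.64 in control and 1.62 in MMS, so that 24.9 normalised reads stood against 3.07. No DMR was found in the genes of the classical inflammatory cytokines Il1a, Il1b and Il6, nor in Tnf. These genes are short, from 2.63 kb (Tnf) to 10.36 kb (Il1a). Of all genes, 3.76% had a DMR under 10 kb and 13.7% from 10 to 30 kb, so their absence is not read as particular to them.

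Interleukin receptors had a DMR in 5 of 36 genes (13.9%, against a count of 8.14 by length), 2 higher in MMS and 3 higher in control. Il4ra encodes the receptor chain for IL-4 and IL-13, and its DMR of 1224 bp on chromosome 7 from 125569870 to 125571093 had the highest control mean of the 27, 6.16 against 5.23 in MMS (71.5 and 37.5 normalised reads). This region covers 152 coding bases and also the antisense gene Gm44876. The window printed is the 300 bp with the most CpG sites, 8, and its capitals mark them.

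Il4ra exonic DMR, chr7:125569934-125570233, plus strand: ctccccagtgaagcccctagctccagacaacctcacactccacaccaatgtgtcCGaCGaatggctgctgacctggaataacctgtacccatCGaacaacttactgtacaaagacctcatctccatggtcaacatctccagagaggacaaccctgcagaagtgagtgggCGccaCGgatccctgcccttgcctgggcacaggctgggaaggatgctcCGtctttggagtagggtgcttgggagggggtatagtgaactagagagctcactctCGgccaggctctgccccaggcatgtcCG

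Il6st encodes gp130, the signalling chain shared by IL-6, LIF and related cytokines. Its DMR on chromosome 13 from 112481562 to 112482193 lies at means of 5.01 in control and 3.48 in MMS, and all its 632 bp are an untranslated exon of 1 of the 10 annotated transcripts and intron in others. In the cluster of IL-1 receptor genes on chromosome 1, which spans 478 kb, 2 of 6 genes had a DMR, in opposite directions. The intronic DMR of Il1r1, the signalling receptor of IL-1, is the widest of the 27 at 2382 bp (40236693 to 40239074) and was higher in control, 5.37 against 4.19. The one in Il1rl2, the receptor of IL-36, was higher in MMS, 4.80 in control and 5.84 in MMS (40344860 to 40345676), and Il1r2, Il1rl1, Il18r1 and Il18rap had none. Il17rd, a receptor-like gene also known as a brake on FGF signalling, had an intronic DMR of 365 bp higher in MMS, 2.82 against 4.87 (chromosome 14, 27077848 to 27078212), and 78.4% of it is repeat, the highest share here.

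Chemokines, which guide migrating cells, had a DMR in 4 of 35 genes (11.4%, against a count of 2.67 by length). Ccl24 (eotaxin-2) attracts eosinophils, and its DMR of 787 bp on chromosome 5 from 135572688 to 135573474 has its centre at -0.03 kb from the start. It covers the start of the gene, 156 exonic bases and part of the upstream sequence. The mean was 5.42 in control and 0.65 in MMS, 42.8 against 1.57 normalised reads, which is the second largest difference of those higher in control at -4.77. That MMS mean lies close to the lowest MMS value, -0.24, though outside the limit of 0.5 used here. Below is the part that begins in the gene and runs up to the first coding base, with 7 CpG sites in capitals, and 79 of its 285 bases are exonic.

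Ccl24 DMR at the gene start, chr5:135572688-135572972, plus strand: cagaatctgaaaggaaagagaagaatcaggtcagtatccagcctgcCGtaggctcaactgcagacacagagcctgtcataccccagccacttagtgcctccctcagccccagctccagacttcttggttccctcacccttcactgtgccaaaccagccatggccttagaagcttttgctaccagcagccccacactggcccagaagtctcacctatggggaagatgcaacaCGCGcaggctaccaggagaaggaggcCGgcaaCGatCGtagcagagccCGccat

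Cxcl12 is the chemokine that places migrating neurons and precursors, and its DMR had means of 4.88 in control and 2.72 in MMS. These 269 bp on chromosome 6 (117176026 to 117176294) are an exon in 2 of 4 annotated transcripts, with 91 coding bases, and have the most CpG per 100 bp of the 27, 4.09. Ccl5 (RANTES), an attractant of T cells and monocytes, had a DMR of 1417 bp at its end on chromosome 11 from 83524549 to 83525965, higher in MMS at 4.35 against 1.59. Only 188 of these bases lie in the gene, in its untranslated last exon, and its centre is past the end. Ccl1 has 3 listed DMRs in a gene model of 129.03 kb. Its protein-coding transcripts take up 3.16 kb of that model, and the nearest DMR lies 56.06 kb away from them, in introns of a single transcript that is not annotated as coding. Their control and MMS means were -0.17 and 5.04 (82235868 to 82237286), 2.20 and 5.84 (82240237 to 82241006), and 5.32 and 3.48 (82250675 to 82251282), so the first pair and the third differ in direction with 9.67 kb between them. None of the 16 chemokine receptors, Cxcr4 and Ccr2 among them, had a DMR, against a count of 1.98 by length.

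Many of these genes lie in clusters, which were formed here after the values had been seen, from at least 4 of the genes in a row with gaps of at most 100 kb. The 8 clusters had 9 DMRs in 1.68 Mb, or 5.36 per Mb, and the rate over the autosomes was also 5.36. Of the 9, 3 lay in the first Ccl cluster on chromosome 11 (Ccl2, Ccl7, Ccl11, Ccl12, Ccl8 and Ccl1, 270 kb), all in the long Ccl1 model. Without Ccl1 that cluster spanned 81.2 kb with 0 DMRs, and the 8 clusters had 6 DMRs in 1.49 Mb, or 4.03 per Mb. Of their 41 genes 4 (9.76%) had a DMR, against a count of 4.17 by length. The Cxcl cluster on chromosome 5 (5 genes over 147 kb), the Ccr cluster on chromosome 9 (5 genes over 186 kb) and the cluster of Ccl27b, Il11ra2, Ccl19 and Ccl21a on chromosome 4 (119 kb) had 0 DMRs in or between their genes. The Il10 cluster on chromosome 1 (4 genes, 143 kb) had 1 between its genes, from 130994568 to 130995378, with control at its lowest value, -0.17, and MMS at 4.75. In the cluster of IL-1 family ligands on chromosome 2 (6 genes, 198 kb) 1 DMR lay between genes, at 1.31 in control and 4.20 in MMS. The second Ccl cluster on chromosome 11 (Ccl5, Ccl9, Ccl6, Ccl3 and Ccl4, 139 kb) held that of Ccl5 and 1 more, at 5.03 in control and 3.69 in MMS.

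TNF superfamily ligands had a DMR in 2 of 13 genes (15.4%, against a count of 1.79 by length). Both were higher in MMS, as were 62.4% of all autosomal DMRs. Tnfsf9 encodes 4-1BBL, a costimulatory ligand of T cells. Its DMR of 439 bp lies wholly upstream of the gene, with its centre at -0.41 kb from the start and the lincRNA gene Gm11110 across it. Control was at its lowest value there, -0.17, and MMS at 4.16, or 17.9 normalised reads. Tnfsf11 encodes RANKL, best known for driving osteoclasts and present in the hypothalamus as a signal for fever. Its intronic DMR of 1526 bp (chromosome 14, 78295324 to 78296849) had means of 1.82 in control and 4.69 in MMS, and 61.7% of it is repeat.

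The TNF receptor superfamily had a DMR in 4 of 20 genes (20%, close to the 20.1% of all genes, and against a count of 3.07 by length). Of its 6 DMRs 5 were higher in control, as were 37.6% of all autosomal DMRs. Tnfrsf1b encodes TNFR2, the TNF receptor of immune cells and glia, and it holds DMRs of both directions in introns, 5.09 kb apart. The one nearer to the start, on chromosome 4 from 145244175 to 145244353, had a mean of 4.72 in control and MMS at its lowest value, -0.24. This is the largest difference among those higher in control, -4.96. The other, from 145238823 to 145239084, had control at its lowest value, -0.17, and 3.19 in MMS, which is 9.13 normalised reads and the lowest mean of a higher group among the 27. Each has 1 CpG, the fewest together with that of Il25. The first is printed whole, with its CpG in capitals.

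Tnfrsf1b intronic DMR, chr4:145244175-145244353, plus strand: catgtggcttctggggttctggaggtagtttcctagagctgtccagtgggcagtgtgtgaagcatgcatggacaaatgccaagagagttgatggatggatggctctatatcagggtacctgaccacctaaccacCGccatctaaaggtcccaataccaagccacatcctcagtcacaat

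Tnfrsf10b, a death receptor for TRAIL, had a DMR of 689 bp that takes in 109 coding bases, with means of 5.00 in control and 2.42 in MMS. The region runs on chromosome 14 from 69774974 to 69775662. Its 300 bp richest in CpG, with 8 in capitals, contain the whole of that coding stretch.

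Tnfrsf10b exonic DMR, chr14:69774987-69775286, plus strand: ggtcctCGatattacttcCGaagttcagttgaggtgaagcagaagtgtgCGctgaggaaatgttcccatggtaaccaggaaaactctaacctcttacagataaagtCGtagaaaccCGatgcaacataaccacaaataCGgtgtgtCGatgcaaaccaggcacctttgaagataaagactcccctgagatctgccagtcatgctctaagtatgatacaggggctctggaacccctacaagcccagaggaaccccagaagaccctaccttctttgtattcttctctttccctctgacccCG

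Tnfrsf19, also called TROY and known from neural progenitors and glia, had 2 intronic DMRs, 54.19 kb apart and both higher in control. They had means of 5.26 and 2.77 (chromosome 14, 61022065 to 61022237) and of 5.41 and 4.04 (60967390 to 60967874). Tnfrsf9 encodes 4-1BB, the receptor of the Tnfsf9 ligand, and its DMR went the other way from that of the ligand, 5.22 in control and 3.90 in MMS (chromosome 4, 150938032 to 150938477). That region also lies in Camta1 on the opposite strand, so it belongs to both genes, and it has 3.14 CpG per 100 bp. Tnfrsf1a, the other TNF receptor, had no DMR.

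NF-kB subunits, their inhibitors and the IkB kinases had a DMR in 4 of 13 genes (30.8%, against 20.1% of all genes and a count of 2.14 by length). Of these 5 DMRs 4 were higher in MMS, as were 62.4% of all autosomal DMRs, and with so few genes neither share is read as particular to them. Ikbke encodes IKK-epsilon, a kinase of interferon induction and of the innate response. It has 2 DMRs 3.24 kb apart on chromosome 1, both higher in MMS, at 1.73 and 4.89 (131268015 to 131269193) and at 1.12 and 4.40 (131272434 to 131272853), the second over 108 bases of a noncoding exon. Nfkb1 encodes p105, the precursor of p50, and its intronic DMR of 193 bp (chromosome 3, 135648667 to 135648859) had means of 1.00 and 4.38, or 2.00 and 20.8 normalised reads. Rela encodes p65, the partner of p50, and was opposite in direction, with 5.03 in control and 3.10 in MMS over an intronic stretch of 289 bp (chromosome 19, 5642236 to 5642524), 54.0% of it repeat. Nfkbiz encodes IkB-zeta, a nuclear cofactor for secondary response genes such as Il6. Its DMR on chromosome 16 from 55818008 to 55819714 had one of the highest lower group means, 4.78 in control and 5.76 in MMS (27.5 and 54.2 normalised reads). With 802 coding bases and 45 CpG sites in 1707 bp it has the most of both among the 27. A part without untranslated sequence is shown, with its 13 CpG sites in capitals.

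Nfkbiz exonic DMR, chr16:55818648-55818947, plus strand: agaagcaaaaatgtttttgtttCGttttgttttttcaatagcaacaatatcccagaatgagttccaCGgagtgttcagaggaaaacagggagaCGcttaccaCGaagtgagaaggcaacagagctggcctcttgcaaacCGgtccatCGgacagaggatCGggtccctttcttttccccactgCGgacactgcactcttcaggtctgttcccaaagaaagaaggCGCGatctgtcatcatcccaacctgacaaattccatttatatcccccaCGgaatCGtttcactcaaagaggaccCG

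The genes Rel, Relb, Nfkb2, Nfkbia, Nfkbib, Nfkbid, Nfkbie, Nfkbil1 and Ikbkb had no DMR. Nor did any of the 9 Toll-like receptors, the sensors of microbial products, any of the 7 TRAF adaptors or the 3 TRAF-interacting genes, against counts of 1.15, 1.54 and 0.751 by length. The long genes Il1rap (148.41 kb), Tlr4 (102.70 kb) and Traf3 (100.78 kb) were among those with none.

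Lbp, which hands bacterial lipopolysaccharide to the receptor complex of TLR4, had the largest difference of all 27, 5.31. The DMR of 1551 bp on chromosome 2 from 158321304 to 158322854 had control at its lowest value, -0.17, and a mean of 5.14 in MMS, which is 35.3 normalised reads, and it covers 60 coding bases. Its 300 bp with the most CpG sites, 9 in capitals, are given for this reason, and hold those coding bases. Myd88, the adaptor of most Toll-like receptors, had no DMR.

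Lbp exonic DMR, chr2:158321856-158322155, plus strand: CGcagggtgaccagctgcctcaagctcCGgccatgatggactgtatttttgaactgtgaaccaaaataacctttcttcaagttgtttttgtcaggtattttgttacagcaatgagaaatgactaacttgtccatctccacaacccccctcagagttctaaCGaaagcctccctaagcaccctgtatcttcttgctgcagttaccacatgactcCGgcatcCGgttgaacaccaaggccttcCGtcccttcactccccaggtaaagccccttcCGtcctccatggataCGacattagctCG

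Some genes without a DMR by this rule had one close by. Just outside the limits, DMRs lay 460 bp past the end of Tlr9 (0.55 in control, 5.42 in MMS), 1246 bp past the end of Ikbkb (5.63 and 4.37) and 1662 bp upstream of Nfkbil1, in Atp6v1g2 (5.93 and 4.99). Counted only through the upstream 1000 bp were those of Il25 and Tnfsf9 described above, 315 and 190 bp from the gene. In all, 25 of the 173 genes had the nearest DMR within 10 kb (14.5%, against 12.2% of the 16621 autosomal protein-coding genes without a DMR), and the median distance was 51.5 kb (56.9 kb).

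In sequence the 27 DMRs were close to the rest. Their median width was 608 bp (544 over all autosomal DMRs), the CpG density 1.42 per 100 bp (1.32), the GC content 49.0% (47.4%) and the repeat share 17.9% (20.6%). All held at least 1 CpG. A STAT motif, TTCNNNGAA, was in 4 of them (14.8%, against 15.8% of all autosomal DMRs), and the full palindromic glucocorticoid receptor motif was in 0 of 27 and 0 of 12845. In the RefSeq promoter sequences of GRCm38 (300 bases around each start), which matched 150 of the 195 genes, the same NF-kB motif was in 10 of 183 promoters (5.46%, against 0.417% of all autosomal promoters). These were promoters of Ccr3, Cxcl1, Cxcl2, Cxcl3, Il16, Il6, Nfkb2, Nfkbia and Tlr3. None of these 9 genes had a DMR, where their lengths give a count of 1.05. A match of letters is a description of the sequence and not of binding.

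Other genes of the same pathways were counted from a separate list of 70 adaptors, kinases, ligands, receptors, JAK, STAT and SOCS genes. Of these, 15 (21.4%) had a DMR, close to the 20.1% of all genes and to the count of 14.3 by length. Of their 19 DMRs 14 were higher in MMS (73.7%, against 62.4% of all autosomal DMRs). Adaptors and kinases had one in 5 of 23 genes, against a count of 5.58 by length. The kinase genes of the IL-1 and Toll-like receptor complexes were among them, with 3 DMRs in Irak3, 2 of them higher in MMS, and 2 in Irak4, 1 in each direction. Irak2 was higher in control, 6.23 against 5.31. Map3k14, the kinase NIK of the alternative NF-kB pathway, had control at its lowest value, -0.17, and 3.17 in MMS. Ripk2, which signals for NOD receptors, had 4.22 in control and 5.50 in MMS. Ligands and receptors outside the symbol rule had one in 5 of 33 (Ackr4, Edar, Ifnar2, Lifr and Ngfr), against a count of 5.17 by length, and their 6 DMRs were higher in MMS. The DMR of Ngfr, the p75 neurotrophin receptor, has its centre at -0.93 kb from the start, with 3.51 in control and 4.98 in MMS. JAK, STAT and SOCS genes had one in 5 of 14, against a count of 3.59 by length, with more reads in MMS at 3 DMRs and in control at 2. Socs2, Stat4 and Stat5b were higher in MMS from a control mean at its lowest value, and Stat6 had 4.76 in control and 2.70 in MMS.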

How the data were processed

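The authors used Torrent Suite to align the meDIP reads (mm10), MACS2 for broad peaks, set with the genome size of human, and DiffBind with DESeq2 and edgeR to compare the groups, normalising to a pooled input per group and subtracting IgG. Their deposited table gives each DMR's log2 mean normalised reads in all 6 libraries, in control and in MMS. Its columns named untreated and treated were read as control and MMS. The authors' deposited log2 fold change, p-value and FDR columns were not used. Direction is MMS minus control, from the group means. A group was at its lowest value within 0.5 of its column minimum on the log2 scale. Positions count from 1 on GRCm38 (mm10), the build of the reference used for sequence. A DMR belonged to a gene by 1 bp of overlap, counted over all genes with code tested on simulated regions. Motifs (NF-kB, STAT, glucocorticoid receptor) were sought on both strands, and all printed sequence is RefSeq's GRCm38.p6. Members, lists and tests were chosen with earlier results of these data known. Every gene with a DMR is named, with its means. Genes without one were named after their values had been seen. Sequences were chosen first from DMRs upstream of a gene or over coding exons, then for the largest difference in each direction, and 7 are printed. That of Cxcl12 was cut short by untranslated sequence, and 1 further sequence and the values of 1 pathway gene are not reported here. Printed stretches are at most 300 bp, with windows that avoid untranslated exons. Alternatives varied the overlap, the upstream window, the size, width and repeat share of DMRs, and the genes counted. Python 3.11.15, numpy 2.4.6, pandas 2.3.3, scipy 1.17.1 and matplotlib 3.10.9 were used. No reads per library were analysed here.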

Additional observations from a re-analysis of the deposited data

How the results depend on the processing

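The number of genes with a DMR, 22, lay between 16 and 26 under 9 of 10 alternatives and was 14 where DMRs needed a log2 difference of at least 2 between the group means, a limit that leaves fewer regions. In each of them the share of the 195 genes (or of those kept) was below that of all genes under the same setting. These shares take no account of gene length, and no alternative was split by length class. The listed genes are shorter, with a median of 10.9 kb against 17.6 kb over all genes. The share of their DMRs higher in MMS, 48.1%, was set against 62.4% of all autosomal DMRs and ran from 40.9% without DMRs at the lowest value of a group (45.1% of all) to 64.7% with the minimum difference of 2 (80.5% of all). Without Ccl1, an alternative added after the data had been seen, it was 45.8%. The median difference over all 27, -0.93, lies between 2 separate directions and turned with small changes of the list, to 2.87 with the minimum difference of 2, to 1.04 with a minimum width of 300 bp and to 0.02 without the DMR shared with Camta1. Control was at its lowest value in 14.8% of the 27 under each limit tried. The limit was not varied for the MMS means, of which that of Ccl24, 0.65, lies close to the lowest value of -0.24. No paired analysis of littermates was possible, since the samples of each group were allocated to pools at random. The table also holds no values per pool, so no pool could be left out and no sample could be set apart from its group. The depth of the libraries limits the precision of low means to an unknown degree.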
